A study of Mus musculus with 6 samples.

Results

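The 10 genes described here are 9 CXC chemokine ligands, *Cxcl1*, *Cxcl2*, *Cxcl5*, *Cxcl9*, *Cxcl10*, *Cxcl12*, *Cxcl13*, *Cxcl14* and *Cxcl16*, and the receptor *Cxcr4*. They were taken by gene name from the 27202 genes listed for colonic tissue of mice with DSS colitis, and all 10 passed the filter on low values that left 16246 genes to test. RNA was sequenced from the colon of 3 mice without *Nedd4l* in intestinal epithelial cells (*Nedd4l* fl/fl *Villin* Cre, labelled cKO) and of 3 littermates (*Nedd4l* fl/fl, labelled WT). All 6 were 8 to 10 weeks old when they drank water with 2% dextran sulfate sodium (DSS) for 7 days, and the floxed *Nedd4l* alleles were shared by both genotypes. NEDD4L is an E3 ubiquitin ligase, and *Villin* drives Cre in the intestinal epithelium, so *Nedd4l* in the other cells of the colon was not targeted. The values are normalized counts, which are reads per gene divided by a size factor per library. No labelled group was without DSS, so the values compare genotypes within colitis. The labels number the mice but do not say more about how they were sampled, so p-values measure the spread between these samples.

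CXC chemokines are small secreted proteins that guide leukocytes through receptors coupled to G proteins. CXCL1, CXCL2 and CXCL5 bind CXCR2 and attract neutrophils, and their genes are induced by IL-1, TNF and IL-17 through NF-kB. CXCL9 and CXCL10 are induced by interferons and attract activated T cells through CXCR3. CXCL12, the ligand of CXCR4, and CXCL13, the ligand of CXCR5 that draws B cells into follicles, are made by stromal cells in resting tissue, and CXCL14 is made by many epithelia. CXCL16 is a ligand of CXCR6 that is held in the membrane until it is shed.

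In the cKO colon the mean log2 level of all 10 genes was higher than in WT, by a median of 2.48 on the log2 scale for the 3 neutrophil-attracting ligands, 1.86 for the 2 interferon-induced ligands and 0.16 for the 3 homeostatic ligands. The median over all 16246 genes was 0.00, with 5% of genes below -0.58 and 5% above 0.73. In 3 members, *Cxcl1*, *Cxcl9* and *Cxcr4*, every cKO library stood above every WT library, whereas 10.5% of all tested genes did so, 10.9% lay wholly below, and 21.4% thus had no overlap between the genotypes. None of the 10 passed an adjusted p of 0.05 in limma, beside 0% of all tested genes. On 5 libraries, with WT replicate 3 left out, edgeR called none of the 10. At an unadjusted p under 0.05, limma gave 3 members, all higher in cKO, beside 6.91% of all genes higher and 7.08% lower (14.0% in either direction). DESeq2 on the same 5 libraries called 2 members, *Cxcl1* and *Cxcr4*, both higher in cKO, beside 0.736% of genes called higher and 0.707% lower. *Cxcl2* had a WT mean under the filter and passed it through the cKO libraries, so its part in the median of its class is a description only.

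The targeted gene was checked before the chemokines. *Nedd4l* stood at 1241, 1271 and 1266 normalized counts in WT and at 476, 942 and 566 in cKO, a log2 difference of -0.99 (SE 0.24, adjusted p = 0.225 in limma). All 3 cKO libraries were below all WT libraries, and cKO replicate 2 had the most *Nedd4l* transcript of the 3. *Nedd4l* passed 0.05 in limma without cKO replicate 2 (-1.28, adjusted p = 0.0131) and with array weights, which weigh each library by its spread around the fit (-1.09, adjusted p = 0.0212), with a range of 0.0131 to 0.512 over all fits. The array weights were 0.41, 0.56 and 4.39 for cKO replicates 1, 2 and 3, beside 0.79 to 1.34 in WT. The cKO side of a fit with these weights thus rests mostly on cKO replicate 3. Depth was similar across the 6 libraries, from 14914367 to 17547270 reads if the smallest step of the values is 1 read, and mitochondrially encoded genes took 2.72% to 3.44% of the values. Summed over 12 epithelial markers such as *Epcam* and *Krt8*, which mark the labelled tissue, the level was 297670 to 319845 normalized counts in WT. In cKO replicates 1, 2 and 3 it was 267787, 324445 and 299151. In bulk tissue, fewer cells of a type and less RNA per cell cannot be told apart, which holds for each value below.

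Of the 10 genes, 6 lie on chromosome 5. *Cxcl5*, *Cxcl1* and *Cxcl2* form a group on the plus strand, with 129.6 kb between *Cxcl5* and *Cxcl1* and 10.8 kb between *Cxcl1* and *Cxcl2*, and *Cxcl3*, *Ppbp* and *Pf4* lie between *Cxcl5* and *Cxcl1*. *Cxcl9* and *Cxcl10* are neighbours on the minus strand, 18.6 kb apart. The sequences before the start sites of the inducible genes are shown because the IL-1, TNF and IL-17 route acts through NF-kB and the interferon route through interferon-stimulated response elements (ISREs). Promoters of 300 bases, 250 before the start site and 50 from it, were available from RefSeq (GRCm38.p6) for 8 of the 10 members and for *Cxcl3*, another CXCR2 ligand of the same group. They were searched on both strands for an NF-kB motif (GGGA and TTCC with any 2 bases between), an ISRE (GAAA and GAAA with any 2 bases between), a GAS site (TTCNNNGAA), which is an interferon-γ-activated sequence, and an AP-1 site (TGANTCA). In the windows below, read 5′ to 3′ on the strand of each gene, capitals mark only matches on that strand to the NF-kB motif and, in *Cxcl10*, also to the ISRE.
*Cxcl1*, chr5:90891139-90891218, plus strand: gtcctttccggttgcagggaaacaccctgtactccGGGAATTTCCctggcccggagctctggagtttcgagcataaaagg
*Cxcl2*, chr5:90903767-90903846, plus strand: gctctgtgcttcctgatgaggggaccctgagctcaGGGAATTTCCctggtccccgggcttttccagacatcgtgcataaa
*Cxcl3*, chr5:90785993-90786072, plus strand: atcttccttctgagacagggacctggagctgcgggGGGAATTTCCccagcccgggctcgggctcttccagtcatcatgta
*Cxcl10*, chr5:92349019-92349117, minus strand: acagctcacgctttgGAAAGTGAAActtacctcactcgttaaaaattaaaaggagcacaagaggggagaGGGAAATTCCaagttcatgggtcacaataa

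The same 10 letters, GGGAATTTCC, began at -71 in *Cxcl1*, -97 in *Cxcl2* and -73 in *Cxcl3*, counted from the start site, and in each of the 3 an overlapping match lay on the other strand. Aligned on these letters, the windows of *Cxcl1* and *Cxcl2* were identical at 37 of 80 bases, the 10 of the motif included, those of *Cxcl1* and *Cxcl3* at 35, and those of *Cxcl2* and *Cxcl3* at 29. *Cxcl10* had its NF-kB match at -159 and its ISRE match at -213, with an AP-1 match at -74. The NF-kB motif thus occurred in 3 of the 8 members with a promoter in the table, beside 1.47% of all 32851 promoters of this length. The ISRE letters occurred in *Cxcl10* and *Cxcl14* (3.44% of all promoters), the GAS letters in *Cxcl14* (8.30%), and the AP-1 letters in *Cxcl9*, at 31 past the start site, and *Cxcl10* (7.81%). *Cxcl12*, *Cxcl13* and *Cxcr4* held none of the 4 motifs in this window. A match is a run of letters and not a measured binding site, and binding was not measured in these samples.

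**Figure D1:**
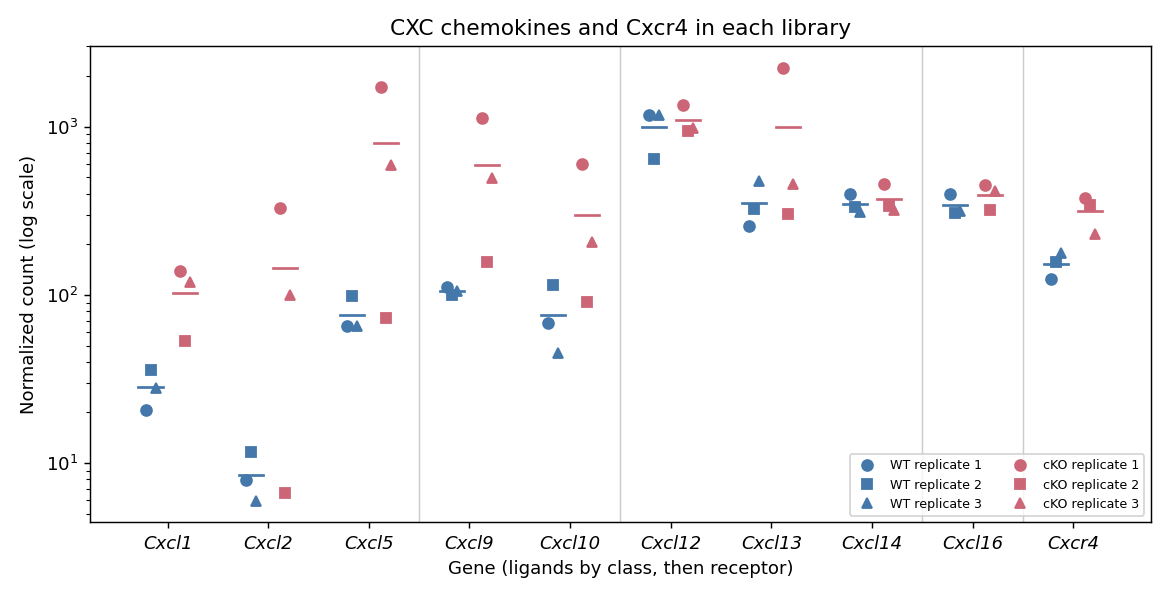
Normalized counts of the 10 genes in each library, on a log scale, with WT and cKO libraries as separate points for each gene. The 3 cKO points of Cxcl1, Cxcl9 and Cxcr4 lie above the 3 WT points, and the cKO points of Cxcl2 span from 6.63 to 328.

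The neutrophil-attracting ligands had the largest median difference of the classes, a description only, since *Cxcl2* passed the filter through the cKO libraries. Their differences, from 1.76 to 2.78 on the log2 scale, overlapped those of the interferon-induced ligands, from 1.65 to 2.06. *Cxcl2* and *Cxcl5* had the widest spread of the 10 genes among cKO mice. *Cxcl1* (ENSMUSG00000029380, chr5:90891241-90893115, plus strand, 4 exons), a ligand of CXCR2, stood at 20.7, 36.0 and 28.0 normalized counts in WT replicates 1, 2 and 3 and at 138, 53.1 and 119 in cKO. Its 3 cKO libraries were above all WT libraries, and cKO replicate 2 was the lowest of them. The means were 103 ± 44.5 in cKO and 28.2 ± 7.63 in WT (SD, n = 3 each), a log2 difference of 1.76 (SE 0.40, 95% interval 0.84 to 2.67, adjusted p = 0.202 in limma). *Cxcl1* passed 0.05 without cKO replicate 2 (2.18, adjusted p = 0.0388), with array weights (1.98, adjusted p = 0.0180), and in DESeq2 on 5 libraries (1.87, adjusted p = 0.0462). With array weights the cKO side rests mostly on cKO replicate 3. Over all fits in limma, edgeR and DESeq2 the lowest adjusted p of *Cxcl1* was 0.0180 and the highest 0.511.

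*Cxcl2* (ENSMUSG00000058427, chr5:90903871-90905938, plus strand), which attracts neutrophils through the same receptor, stood at 7.90, 11.7 and 5.99 normalized counts in WT and at 328, 6.63 and 100.1 in cKO. The 3 WT libraries held from 6 to 13 steps of the values for *Cxcl2*, and cKO replicate 2 lay among them, so the genotypes overlapped. Against the WT mean of 8.53 ± 2.90 (SD, n = 3), cKO replicates 1, 2 and 3 stood at 38.4, 0.78 and 11.7 times. The log2 difference of 2.78 had a 95% interval of -0.57 to 6.12 (SE 1.36, adjusted p = 0.416 in limma). It was 4.30 without cKO replicate 2 (adjusted p = 0.0327) and 1.59 without cKO replicate 1, and the adjusted p ranged from 0.0327 to 0.628 over all fits in limma, edgeR and DESeq2. Since *Cxcl2* passed the filter only through the cKO libraries, these fits are a description only.

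*Cxcl5* (ENSMUSG00000029371, chr5:90759360-90761624, plus strand), a CXCR2 ligand made by epithelial cells, had the highest level per kb of the 3 in every library. It stood at 65.2, 99.0 and 64.9 normalized counts in WT and at 1728, 73.0 and 589 in cKO. Replicates 1 and 3 of cKO were above all WT libraries, while cKO replicate 2 was below WT replicate 2. The means were 797 ± 847 in cKO and 76.3 ± 19.6 in WT (SD, n = 3 each), a log2 difference of 2.48 (SE 1.13, 95% interval -0.32 to 5.28, adjusted p = 0.394 in limma). Without cKO replicate 2 the difference was 3.74 (adjusted p = 0.0526), and without cKO replicate 1 it was 1.46, with adjusted p from 0.0526 to 0.641 over all fits in limma, edgeR and DESeq2.

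The mix of the 3 ligands differed among the libraries as well. Per kb of gene length, *Cxcl5* made up 66.2% to 70.2% of their summed level in WT, and 80.0%, 55.4% and 73.9% in cKO replicates 1, 2 and 3. *Cxcl1* made up 22.2% to 28.3% in WT and 6.35%, 40.0% and 14.8% in cKO. *Cxcl2* had the smallest share in all WT libraries, 5.50% to 7.66%, and took 13.7%, 4.54% and 11.3% in cKO replicates 1, 2 and 3. Only in cKO replicate 1 was the share of *Cxcl2* above that of *Cxcl1*.

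Both interferon-induced ligands had higher means in cKO. *Cxcl9* (ENSMUSG00000029417, chr5:92321347-92328079, minus strand, 4 exons), a CXCR3 ligand induced mainly by interferon-γ, stood at 112, 99.9 and 106 normalized counts in WT and at 1127, 157 and 493 in cKO. Its WT libraries lay closest together of all 10 genes, the highest at 1.12 times the lowest, and every cKO library was above them. The means were 592 ± 493 in cKO and 106 ± 5.87 in WT (SD, n = 3 each), a log2 difference of 2.06 (SE 0.69, 95% interval 0.34 to 3.78, adjusted p = 0.314 in limma). *Cxcl9* passed 0.05 without cKO replicate 2 (2.81, adjusted p = 0.0375), and over all fits in limma, edgeR and DESeq2 the highest adjusted p was 0.520.

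*Cxcl10* (ENSMUSG00000034855, chr5:92346638-92348889, minus strand), the CXCR3 ligand whose promoter window is printed above, stood at 68.1, 115 and 44.9 normalized counts in WT and at 600, 90.7 and 207 in cKO. The genotypes overlapped, since cKO replicate 2 was below WT replicate 2. The log2 difference was 1.65 (SE 0.73, 95% interval -0.15 to 3.46, adjusted p = 0.382 in limma), with means of 299 ± 267 in cKO and 76.1 ± 35.8 in WT (SD, n = 3 each). It was 0.95 without cKO replicate 1, and no fit in limma, edgeR or DESeq2 took it past 0.05 (adjusted p from 0.106 to 0.594).

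**Figure D2:**
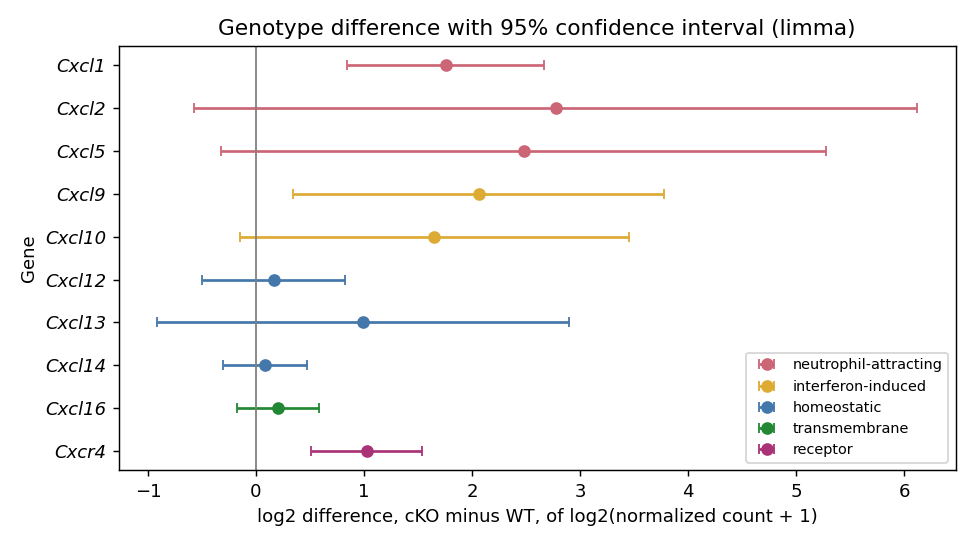
Log2 difference (cKO minus WT) of each of the 10 genes from limma, with bars for the 95% interval and colours for the chemokine class. The intervals of Cxcl1, Cxcl9 and Cxcr4 lie above 0, and those of the other 7 genes include 0.

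The 3 homeostatic ligands had smaller differences, and the genotypes overlapped for each. *Cxcl12* (ENSMUSG00000061353, chr6:117168535-117181367, plus strand), the CXCR4 ligand of stromal and endothelial cells, stood at 1173, 641 and 1177 normalized counts in WT and at 1342, 943 and 986 in cKO. WT replicate 2 was the lowest of the 6 libraries, and without it the sign of the log2 difference turned from 0.16 (SE 0.27, 95% interval -0.50 to 0.82, adjusted p = 0.808 in limma) to -0.13. *Cxcl14* (ENSMUSG00000021508, chr13:56288643-56296551, minus strand) stood at 398, 331 and 311 normalized counts in WT and at 454, 336 and 318 in cKO. Both genotypes covered nearly the same range for *Cxcl14*, with a log2 difference of 0.08 (SE 0.17, 95% interval -0.31 to 0.47, adjusted p = 0.847 in limma) that was -0.08 without cKO replicate 1 and -0.05 with array weights.

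*Cxcl13* (ENSMUSG00000023078, chr5:95956951-95961068, plus strand), the B cell attractant of follicles, stood at 257, 323 and 474 normalized counts in WT and at 2242, 301 and 458 in cKO. A single library set it apart, since cKO replicate 1 was at 6.38 times the WT mean and the other two cKO libraries lay within the WT range. The log2 difference was 0.99 (SE 0.77, 95% interval -0.92 to 2.89, adjusted p = 0.584 in limma) with all 6 libraries and 0.13 without cKO replicate 1. The 9 B cell markers, among them *Ms4a1*, summed to 5629 normalized counts in cKO replicate 1, to 2742 and 2121 in cKO replicates 2 and 3, and to between 1517 and 3871 in WT. All 9 B cell markers had higher means in cKO, none at an unadjusted p under 0.05, with a median log2 difference of 0.36, and their part in the *Cxcl13* value was not tested.

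*Cxcl16* (ENSMUSG00000018920, chr11:70453983-70459984, minus strand, 5 exons), the transmembrane ligand of CXCR6, stood at 395, 308 and 317 normalized counts in WT and at 447, 320 and 413 in cKO. The genotypes overlapped, and the log2 difference of 0.20 had a 95% interval of -0.17 to 0.58 (SE 0.16, adjusted p = 0.581 in limma). The upper limit of this interval leaves room for a difference of up to 0.58 on the log2 scale.

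*Cxcr4* (ENSMUSG00000045382, chr1:128588199-128592293, minus strand, 2 exons), the CXCL12 receptor found on most leukocytes, stood at 123, 157 and 178 normalized counts in WT and at 375, 341 and 230 in cKO. All 3 cKO libraries were above all WT libraries. *Cxcr4* was at 2.46, 2.23 and 1.51 times the WT mean in cKO replicates 1, 2 and 3. In cKO replicate 2, *Cxcl1* was at 1.88 times its WT mean and *Cxcl9* at 1.48 times, while *Cxcl2*, *Cxcl5* and *Cxcl10* were at 0.78 to 1.19 times. The means were 315 ± 75.7 in cKO and 153 ± 27.4 in WT (SD, n = 3 each), a log2 difference of 1.03 (SE 0.22, 95% interval 0.51 to 1.54, adjusted p = 0.192 in limma). *Cxcr4* passed 0.05 in DESeq2 on 5 libraries (1.17, adjusted p = 0.0119, with a range of 0.0119 to 0.492 over all fits in limma, edgeR and DESeq2). Those 5 leave out WT replicate 3, the highest WT library for *Cxcr4*, and limma without it gave 1.14 (adjusted p = 0.415). *Cxcl12*, which encodes the ligand of CXCR4, had a log2 difference of 0.16 with all 6 libraries.

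**Figure D3:**
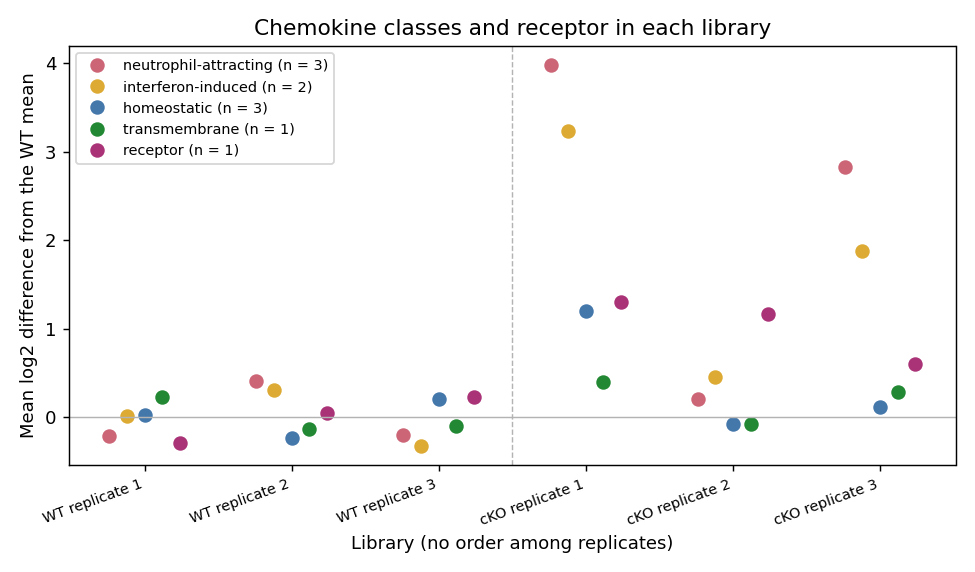
Mean log2(value + 1) of each chemokine class in each library, relative to the mean of that class over the WT libraries. In cKO replicate 1 the neutrophil-attracting class is at 3.98 and the interferon-induced class at 3.24, while in cKO replicate 2 these classes are at 0.20 and 0.46 and the receptor Cxcr4 at 1.17. The neutrophil-attracting class includes Cxcl2, which passed the filter only through the cKO libraries, so its mean is a description only.

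The cKO libraries were ordered alike across most of the ligands. Replicate 1 was the highest cKO library for all 10 genes, as it was for 38.6% of all tested genes (6275 of 16246). In 8 members the order was replicate 1, then 3, then 2, and in *Cxcl14* and *Cxcr4* replicate 3 was the lowest. The share of all tested genes with this full order was not counted. The highest cKO library was at 49.4 times the lowest for *Cxcl2*, 23.7 times for *Cxcl5*, 7.46 times for *Cxcl13*, 7.18 times for *Cxcl9* and 6.62 times for *Cxcl10*. For *Cxcl1*, *Cxcr4*, *Cxcl14*, *Cxcl12* and *Cxcl16* this ratio lay between 1.40 and 2.60, and among the WT libraries it lay between 1.12 and 2.56 for all 10 genes. The class means followed the same order. In cKO replicates 1, 2 and 3 the neutrophil-attracting ligands were at 3.98, 0.20 and 2.83 above their WT mean on the log2 scale. The interferon-induced ligands were at 3.24, 0.46 and 1.88, and the homeostatic ligands at 1.20, -0.08 and 0.12. *Cxcl2*, at 5.15, -0.28 and 3.45, passed the filter only through the cKO libraries, so the neutrophil-attracting mean is a description only. The other members of that class were *Cxcl1*, at 2.28, 0.92 and 2.07, and *Cxcl5*, at 4.51, -0.04 and 2.96. With cKO replicate 2 left out, 7 members lay wholly above WT, beside 18.5% of all tested genes, and with WT replicate 2 left out 5 did, beside 15.2%. The 7 include *Cxcl2*, which passed the filter only through the cKO libraries, so its place among them is a description only.

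**Figure D4:**
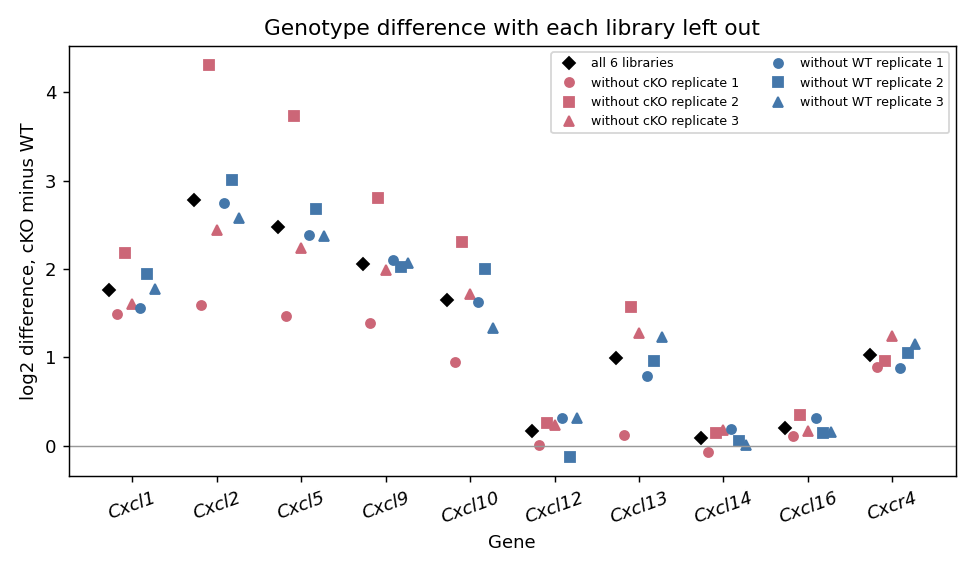
Log2 difference (cKO minus WT) of each gene with all 6 libraries and with each library left out in turn. For Cxcl2 the difference runs from 1.59 without cKO replicate 1 to 4.30 without cKO replicate 2, whereas for Cxcl16 it stays between 0.10 and 0.35.

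Levels were compared between the genes per kb of the gene length listed. In WT the highest mean was that of *Cxcl13*, at 306 normalized counts per kb, followed by *Cxcl14* at 190, *Cxcl12* at 122, *Cxcl16* at 112 and *Cxcr4* at 84.4. The inducible ligands were lower, with *Cxcl5* at 41.0, *Cxcl9* at 35.1, *Cxcl10* at 33.8, *Cxcl1* at 15.1 and *Cxcl2* at 4.12. Among neighbours in this order, the libraries of *Cxcl12* and *Cxcl16*, *Cxcl5* and *Cxcl9*, and *Cxcl9* and *Cxcl10* overlapped, and those of the other 6 pairs did not. In cKO *Cxcl13* was at 870 normalized counts per kb and *Cxcl5* was next at 428, while *Cxcl2* at 70.0 and *Cxcl1* at 55.1 were lowest, and the libraries of all 9 neighbouring pairs overlapped. Homeostatic ligands and *Cxcl16* thus made up the upper part of the order in WT, and *Cxcl5* stood above *Cxcl14* in the cKO means.

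Other ligands and receptors of the family were read from lists set out for this purpose. Of 6 other CXC ligands 3 passed the filter, namely *Pf4* and, only through the cKO libraries, *Cxcl3* and *Cxcl11*. *Cxcl3*, whose promoter window is printed above, stood at 0, 2.70 and 0 normalized counts in WT and at 113, 3.32 and 41.3 in cKO, with the library order seen for *Cxcl2*. Of 7 other receptors 6 passed the filter, with *Cxcr2*, the receptor of the neutrophil-attracting ligands, passing only through the cKO libraries, and of the other 5 none was at an unadjusted p under 0.05. *Cxcr2* stood at 0, 2.70 and 0 normalized counts in WT and at 181, 4.42 and 20.6 in cKO. In cKO replicate 2 both *Cxcl3* and *Cxcr2* were near their value in WT replicate 2. The receptors of the other members had smaller differences, with *Cxcr3*, the receptor of CXCL9 and CXCL10, at -0.18 (SE 0.21), *Cxcr5*, the receptor of CXCL13, at 0.22 (SE 0.54), *Cxcr6*, the receptor of CXCL16, at 0.04 (SE 0.25) and *Ackr3*, a scavenger of CXCL12, at 0.33 (SE 0.20) on the log2 scale. The *Cxcl11* transcript was at 14.8, 5.40 and 8.99 normalized counts in WT and at 29.7, 3.32 and 16.5 in cKO.

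Of the 16 listed inputs and feedback genes of IL-1, TNF, IL-17 and NF-kB, 12 passed the filter, 1 of them, *Csf3*, only through the cKO libraries. Of the other 11, 3 were higher in cKO at an unadjusted p under 0.05 and 0 lower, beside 6.91% of all tested genes higher and 7.08% lower. *Il1b*, the cytokine IL-1β, stood at 113, 72.0 and 91.9 normalized counts in WT and at 993, 255 and 424 in cKO, with all cKO libraries above WT (log2 difference 2.38, SE 0.50, adjusted p = 0.211 in limma). *Il17ra*, the IL-17 receptor subunit, differed by 0.36 on the log2 scale (SE 0.12) and *Tnfaip3*, an inhibitor that NF-kB induces, by 0.22 (SE 0.09). *Csf3*, the granulocyte growth factor, was at 0, 0.90 and 0 normalized counts in WT and at 51.8, 1.11 and 12.4 in cKO. *Il17a*, *Il17f*, *Il6* and *Csf2* were below the filter.

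Of 19 genes of the interferon-γ response 18 were tested, all 18 had higher means in cKO, 10 of them at an unadjusted p under 0.05 (6.91% of all tested genes), and the median log2 difference was 0.77. *Psmb9*, an immunoproteasome subunit, stood at 1078, 1170 and 1252 normalized counts in WT and at 1836, 1405 and 1873 in cKO (0.54 on the log2 scale, SE 0.13, adjusted p = 0.211 in limma). *Gbp3*, a guanylate-binding protein, stood at 317, 313 and 340 normalized counts in WT and at 966, 430 and 662 in cKO, and the order of its cKO libraries was that of *Cxcl9* and *Cxcl10*. *Ifngr2*, a subunit of the interferon-γ receptor, and *Psmb8* differed by 0.29 (SE 0.08) and 0.35 (SE 0.12) on the log2 scale. *Ido1*, which degrades tryptophan and was chosen after its values were seen, was at 11.9, 15.3 and 18.0 normalized counts in WT and at 3551, 31.0 and 1310 in cKO, while *Ifng* itself was below the filter.

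Of 10 genes of the type I interferon response, all tested, 3 were higher at an unadjusted p under 0.05, beside 6.91% of all tested genes, and the median log2 difference was 0.69. *Ifit2*, an RNA-binding antiviral protein, stood at 278, 430 and 284 normalized counts in WT and at 3093, 482 and 1258 in cKO, and *Isg15* and *Oas2* differed by 0.90 (SE 0.29) and 1.07 (SE 0.40) on the log2 scale. Of 14 genes of CXCR4 signaling 13 were tested, with a median log2 difference of 0.19, and 1 of the 13 was higher at an unadjusted p under 0.05, a share near the 6.91% of all tested genes. That gene was *Gnai2*, a G protein subunit through which CXCR4 signals (0.26, SE 0.09). In none of these 6 lists did a gene pass an adjusted p of 0.05 in limma, as was the case for all tested genes.

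**Figure D5:**
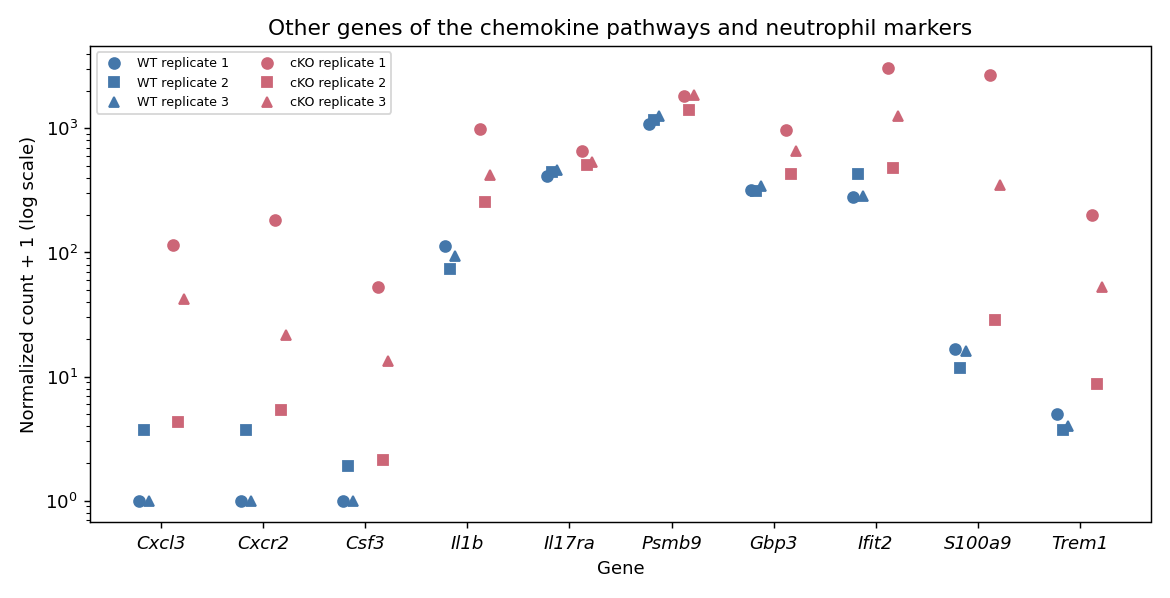
Normalized counts plus 1, on a log scale, of 10 genes of the pathway and marker lists in each WT and cKO library. Cxcl3, Cxcr2, Csf3, S100a9 and Trem1 have their highest value in cKO replicate 1, and the cKO points of Il1b, Psmb9 and Gbp3 lie above all WT points. Cxcl3, Cxcr2, Csf3 and Trem1 passed the filter only through the cKO libraries, so their place here is a description only. Of the neutrophil markers not drawn, S100a8 overlapped between the genotypes and Ly6g had a lower mean in cKO.

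Some markers of other cell types followed the order of the libraries seen for the ligands. Of 14 neutrophil markers 11 passed the filter, 5 of them only through the cKO libraries, so no count or median over the 11 is given. These 5 were *Trem1*, *Mmp8*, *Retnlg*, *Cxcr2* and *Ngp*. *S100a8* was at 12.8, 38.7 and 29.0 normalized counts in WT and at 2708, 31.0 and 417 in cKO, so the genotypes overlapped. *S100a9*, an abundant neutrophil protein named here after its values were seen, stood at 15.8, 10.8 and 14.98 normalized counts in WT and at 2680, 27.6 and 348 in cKO, the order seen for *Cxcl2* and *Cxcl5*. The summed level of the 14 markers was 3033 to 3307 normalized counts in WT and 11164, 3083 and 3619 in cKO, but *Ly6g* alone, with a lower mean in cKO, made up 2829 to 3136 of it in WT and 2200 to 2832 in cKO. Without *Ly6g*, a choice made after the values were seen, the sum was 171 to 207 normalized counts in WT and 8678, 251 and 1419 in cKO. *Mpo* and *Elane*, markers of neutrophil precursors, were below the filter, and no listed neutrophil marker was at 0 in all 6 libraries. The part of neutrophil RNA in the values of *Cxcl2*, *Cxcl5*, *Cxcr2* and *Cxcr4* was not tested.

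Of 12 monocyte and macrophage markers, 4 were higher at an unadjusted p under 0.05, beside 6.91% of all tested genes for this and the next lists, with a median log2 difference of 0.36. Their summed level was 7507 to 11749 normalized counts in WT and 12192, 14065 and 12315 in cKO replicates 1, 2 and 3. All 7 fibroblast markers had higher means in cKO, 3 at an unadjusted p under 0.05 with a median of 0.78. Their sum was 10963 to 18877 in WT and 43520, 21864 and 23107 in cKO replicates 1, 2 and 3. Of 9 endothelial markers, 8 were higher and 1 of these was at an unadjusted p under 0.05, with a median of 0.50. Their sums were 2076 to 2974 in WT and 5000, 3024 and 2964 in cKO replicates 1, 2 and 3. The library that was highest for all members, cKO replicate 1, thus had the highest fibroblast and endothelial sums, and its epithelial sum, given above, was the lowest. The 11 T cell markers, which mark the cells that CXCL9 and CXCL10 attract, had a median log2 difference of 0.00, with sums of 1004 to 1294 normalized counts in WT and 942 to 1290 in cKO. The medians of the dendritic, plasma, smooth muscle and epithelial markers were -0.01, 0.12, -0.47 and -0.06. The smooth muscle sums overlapped between the genotypes, at 9008, 20736 and 4935 in WT replicates 1, 2 and 3 and at 5516, 7755 and 10789 in cKO. Of the 7 smooth muscle markers 0 were at an unadjusted p under 0.05. No marker of these 9 lists was at 0 in all 6 libraries, and their part in the chemokine values was not tested.

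For each member, the genes with the most similar pattern over the 6 libraries were sought among 11870 protein-coding genes with a mean of at least 50, by the root mean square difference of their mean-centred log2 values. *Cxcl1* was nearest to *Socs3* (0.20 on the log2 scale), *Isx* (0.33) and *Slfn1* (0.34). *Cxcl2* and *Cxcl5* shared their nearest gene, *Mmp3*, which encodes the matrix metalloproteinase stromelysin-1, at 0.23 and 0.27. *Mmp3* stood at 24.7, 35.1 and 25.0 normalized counts in WT and at 1015, 23.2 and 220 in cKO. The next for *Cxcl2* were *Mmp10* (0.50) and *Dio2* (0.51), and for *Cxcl5* *Myl7* (0.31) and *F830016B08Rik* (0.40). *Cxcl9* was nearest to *Atg9b* (0.11), *Iigp1*, an interferon-inducible GTPase (0.12), and *Selp*, which encodes P-selectin (0.19), and *Cxcl10* to *Chl1* (0.25), *Ifit2* (0.28) and *Gpat3* (0.29).

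*Cxcl13* had no gene closer than 0.33, with *Mapk11* (0.33), *Gbp4* (0.35) and *Il33* (0.38) nearest. *Cxcr4* was nearest to *Nr4a1*, an orphan nuclear receptor (0.19), *Parvg* (0.22) and the complement gene *C3* (0.22). The genes with little difference between genotypes had closer neighbours, namely *Fabp4*, *Cmah* and *Cd3g* for *Cxcl12* (0.08 to 0.09), *Pde8a*, *Stk17b* and *Zxdb* for *Cxcl14* (0.04 to 0.06), and, among those given for *Cxcl16*, *Ddah2* and *Dennd4a* (each 0.06). Among the members themselves, *Cxcl2* and *Cxcl5* differed by 0.33 and *Cxcl9* and *Cxcl10* by 0.48, while *Cxcl1* was nearer to *Cxcl9* (0.53) than to *Cxcl5* (1.00) or *Cxcl2* (1.31). These distances describe 6 libraries of 2 genotypes and carry no test.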

How the data were processed

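Colonic RNA of 3 cKO and 3 WT mice was sequenced as 6 libraries, and 1 table was used. Per the labels, reads were aligned with HISAT2 2.0.5 and counted with featureCounts 1.5.0-p3. The authors deposited normalized counts, a signal equal to reads per gene divided by a size factor per library. All values were whole multiples of a step between 0.90 and 1.11 in each library (tolerance 0.0001), and total steps ran from 14914367 to 17547270. The labels name the build hg18, which is human, whereas 97.0% of the 27202 genes have the coordinates of GENCODE M21 on GRCm38. The strand setting and the treatment of shared reads are not given in the sources used here, so near-identical or overlapping genes are uncertain. The table also holds the authors' genotype means, fold changes and p-values, which were not used.

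Values were transformed to log2(value + 1), and log2 differences in limma and of class means are on that scale, which understates the change of low genes. The log2 differences of edgeR and DESeq2 are instead fold changes that these models fitted to the recovered reads. Values given as times a mean or another library are plain ratios of normalized counts. Genes whose mean reached 10 (16246) were fitted in R 4.3.3 using lmFit and eBayes (trend, robust) of limma 3.58.1. P-values were adjusted by Benjamini-Hochberg over all of them, and the threshold was 0.05. An exact permutation test of 3 against 3 cannot give a two-sided p below 0.10. The code was tested on simulated data. Alternatives were other pseudocounts and filters, quantile normalization, array weights, a replicate block, leaving out each library, and, chosen after seeing the data, edgeR 4.0.16 and DESeq2 1.42.0 on the recovered reads of 5 libraries.

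The members and lists were chosen with earlier results of these data known. Named were all members, up to 4 genes of each pathway list at an unadjusted p under 0.05 by smallest p, and the 3 genes most like each member, of which some are not reported here; other genes of the pathway and marker lists were named after their values were seen. Python 3.11.15 and matplotlib 3.10.9 were used for the figures.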

Additional observations from a re-analysis of the deposited data

How the results depend on the processing

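With all 6 libraries 0 members passed an adjusted p of 0.05 in limma. This count ran from 0 to 3 when a library was left out. The 3, *Cxcl1*, *Cxcl2* and *Cxcl9*, were found without cKO replicate 2, where 0.431% of all genes were called higher and 0.320% lower. *Cxcl2* passed the filter only through the cKO libraries, so its part in this count is a description only. The count was 1 with array weights, where cKO replicate 3 weighed most, beside 1.61% of all genes called higher. It was 2 in DESeq2, beside 0.736%, while edgeR called 0. The count of members at an unadjusted p under 0.05, 3 with all libraries beside 6.91% of all genes higher, was 5 with a filter at a mean of 50 (7.66%), 6 with array weights (12.8%), 5 in DESeq2 (6.25%) and from 2 to 6 with a library left out (4.88% to 8.93%). *Cxcl2* was among the 6 with array weights, the 5 in DESeq2 and the 6 without cKO replicate 2, again as a description only. Members with no overlap between the genotypes, 3 with all libraries, numbered from 3 to 7 with a library left out, while the share of all genes without overlap, 21.4% with all libraries, lay between 29.0% and 37.6%. Over all genes, 0 were called higher and 0 lower in limma, beside 1122 and 1151 at an unadjusted p under 0.05. Without a filter 7 were called higher and 23 lower, with array weights 262 and 369, in DESeq2 101 and 97, and with a library left out from 0 to 70 higher and from 0 to 52 lower. The signs of *Cxcl12* (-0.126 without WT replicate 2, and up to 0.311 without another library) and *Cxcl14* (-0.076 without cKO replicate 1, up to 0.185 without another library, and -0.051 with array weights) turned, and the cause was not tested. No other member changed sign in any fit. The labels do not say whether the replicate numbers pair the samples, and the main fit did not use them as pairs. Deviations of same-numbered libraries from their group means correlated at -0.029, -0.090 and -0.056. With 3 libraries per group, such correlations cannot settle whether samples were paired. With the replicate block 4 members were at an unadjusted p under 0.05 and 0 passed an adjusted p. edgeR and DESeq2 were planned on all 6 libraries, but both were run on 5. WT replicate 3 was left out because its step, 0.9985, was near 1, although its values were whole multiples of that step, as in the other libraries. Depth limits the WT values of *Cxcl2*, which rest on 6 to 13 steps.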
